A study of Mus musculus with 9 samples.

Results

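Loss of Foxn1 from cortical thymic epithelial cells (cTEC) was examined in 10 of the 20 RNA libraries of the series, as 5 libraries of Foxn1-deleted cTEC against 5 libraries of control cTEC. All the mice were homozygous for beta5t-rtTA, a doxycycline-dependent activator at the locus of beta5t (Psmb11), and homozygous for a floxed Foxn1 allele (Foxn1 fl/fl). The deleted group was also heterozygous for tetO-Cre, which the activator switches on, and the controls lacked it. Both groups received doxycycline and were taken 72 h after it. Cells were sorted as CD45-, EpCAM+, MHCII+, Ly51+ and UEA1-, and polyadenylated RNA was sequenced. Every library carries a number from 1 to 5 within its group. Genes were tested across the whole table in a pair of fits: an unpaired fit of genotype alone, and a blocked fit that adds the library number as a term. The question followed here is what the blocked fit adds. What the number stands for (a litter, a sort day or only a name) is not given in the sources used here, nor is it stated that the 5 libraries of a group came from separate mice, so p-values measure the spread between these libraries, which may be technical in part. The activator sits at the beta5t locus, so Cre depends on cells in which that locus is or was active. The Foxn1 count covers the whole gene while the deletion removes exons 7 and 8, so it does not measure the deletion.

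Foxn1 is the forkhead transcription factor without which thymic epithelium does not mature, and mice that lack its function are nude and athymic. Cortical epithelium attracts blood-borne progenitors with chemokines, commits them to the T lineage through the Notch ligand Dll4, and displays peptides made by its own proteasome and lysosomal proteases for positive selection. Many genes of these tasks are held to need Foxn1 in mature epithelium as well as in development.

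Totals ran from 20719630 to 22372633 counts per library, and 15224 of 38720 genes were tested. Sums of markers of other cells differed in part between the libraries of the 2 groups, and none passed adjustment over the 8 sums. The 20 thymocyte markers summed to 741, 126, 721, 344 and 910.0 CPM (counts scaled to a library total of 1000000) in control libraries 1 to 5 and to 342, 115, 311, 271 and 654 CPM in deleted libraries 1 to 5, lower in 5 of 5 numbers (exact permutation test, two-sided p = 0.198; exact sign-flip test over numbers p = 0.0625, the smallest it can give). Fibroblast markers (14 genes) summed to 1015, 1008, 772, 813 and 499 CPM in controls and to 1461, 1447, 980.5, 1403 and 1680.5 CPM in deleted libraries, higher in 5 of 5 numbers (exact permutation p = 0.0238, 0.0952 after adjustment over 8 marker sums). Xist, the RNA of the inactive X in female cells, was at 2.10, 388, 563, 384 and 403 CPM in controls and at 473, 900.2, 656, 1037 and 1209 CPM in deleted libraries (exact permutation p = 0.0159, adjusted 0.0952), and the 4 Y-linked genes were lower in the deleted library in 4 of 5 numbers. Both male and female transcripts were thus present in 9 libraries, and control library 1 had next to no Xist. Macrophage, B cell, endothelial and erythroid sums overlapped between the groups (exact permutation p from 0.595 to 0.976). The cTEC identity list itself summed to between 13483 and 37780.1 CPM in controls and to between 8340.0 and 9236 CPM in deleted libraries, which did not overlap. The part of these marker shifts in the results below was not tested except where values are given beside a result, and in such bulk samples fewer cells of a type and less RNA per cell cannot be told apart.

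**Figure D1:**
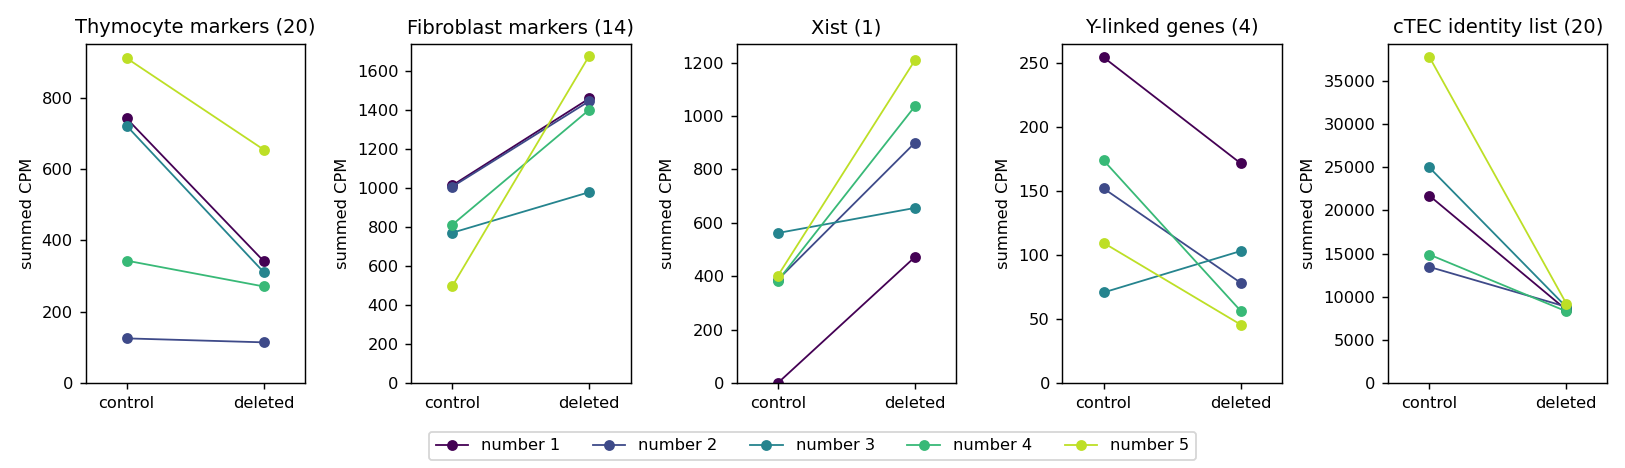
Summed CPM of 4 sets of transcripts of other cells or of sex, and of the cTEC identity list, in each library (y axes from 0; number of genes in parentheses; lines join libraries of the same number). Thymocyte sums were nearly equal in number 2, at 126 and 115 CPM, Xist was closest between genotypes in number 3, at 563 and 656 CPM, and the cTEC list was lower in every deleted library.

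Libraries that share a number resembled each other. After the group mean of each gene was taken off, the log2 CPM deviations of same-numbered libraries correlated across genes at 0.60, 0.75, 0.0853, 0.35 and 0.45 for numbers 1 to 5, while libraries of unlike number gave values from -0.62 to 0.33. In 8 of 10 libraries the highest correlation was with the own number. Number held 57.4% of the sum of squares of log2 CPM over all genes, genotype 24.2%, and 18.4% was left after both. Number has 5 levels and genotype fewer, so number would on average hold the larger share even if neither label mattered. The shares, here and below, are not corrected for this, and they do not rank number above genotype. Number 3 lay below the correlation of 0.1 asked of every pair, so the numbers were not taken as pairs, and the unpaired fit is the one from which calls are made; the blocked values are given as those of a second fit. Genes are not independent replicates, and these correlations are a description.

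**Figure D2:**
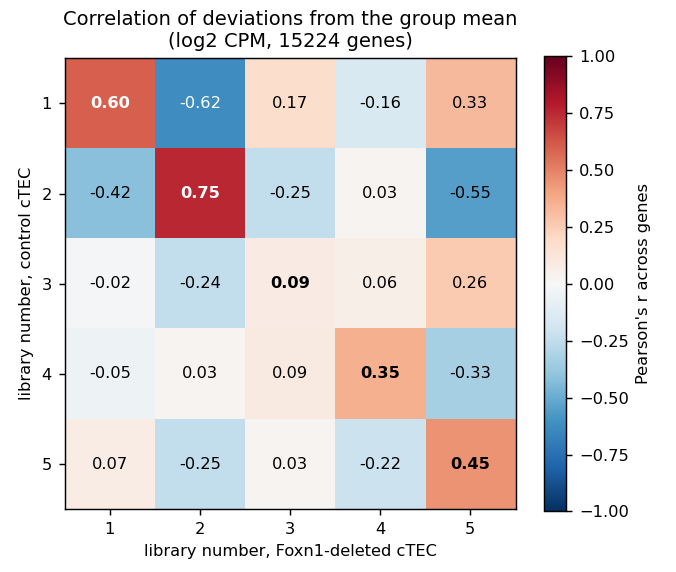
Pearson correlation across genes between the deviation of each control library (rows) and each deleted library (columns) from its group mean in log2 CPM. The diagonal holds same-numbered libraries, from 0.09 in number 3 to 0.75 in number 2, and control 1 with deleted 2 is the lowest at -0.62.

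Variation by number was not spread evenly over functions. For heat shock genes the median share of a gene's sum of squares held by number was 93.5%, for immediate early and stress genes 85.2%, for thymocyte markers 83.4% and for cytosolic ribosomal proteins 79.6%, against 56.2% over all genes tested. Markers of other cells were among the highest, with 95.5% for erythroid, 90.1% for macrophage and 86.4% for endothelial markers. It was lowest for the cTEC identity list, at 25.0%, followed by oxidative phosphorylation (35.8%), cholesterol biosynthesis (36.1%) and the constitutive proteasome (39.0%). Number 2 was the library pair with little heat shock RNA: Hspa1b, an inducible Hsp70 chaperone, was at 56.7 and 72.8 CPM there and at 464 to 2372 CPM in the other 8 libraries. Foxn1 varied with number too (88.9% of its sum of squares) and hardly with genotype. It was at 407, 515, 351, 416 and 579 CPM in controls and at 362, 538, 361, 407 and 500.1 CPM in deleted libraries, and neither fit called it (adjusted p = 0.783 unpaired and 0.457 blocked).

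A gene was called when its adjusted p (edgeR quasi-likelihood test, Benjamini-Hochberg over all 15224 genes) was below 0.05. The unpaired fit called 257 genes lower in deleted cTEC (1.69%) and 43 higher (0.282%). The blocked fit called 822 lower (5.40%) and 398 higher (2.61%). All 257 falls and 42 of the 43 rises of the unpaired fit were among the blocked calls, so the block added 565 falls and 356 rises to the edgeR calls. DESeq2 without the block already called 337 of these falls and 159 of these rises, so not all of the 921 genes are owed to the block. Cck, which encodes cholecystokinin, was the 1 gene that lost its call. It was at 6.67, 5.79, 5.86, 7.52 and 2.41 CPM in controls and at 11.6, 9.86, 13.9, 12.6 and 20.4 CPM in deleted libraries, higher in each deleted library than in any control, and its adjusted p went from 0.0484 to 0.0538.

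The added genes changed by less than those called by both fits. Their median log2 fold change (deleted over control) was -0.64 among the 565 falls and 0.52 among the 356 rises, against -1.55 and 0.92 for the genes called by both fits and 0.01 for all genes. Of the added genes 129 fell and 47 rose by at least 2-fold. The estimates of the added genes hardly moved between fits, by a median of 0.02 log2, whereas their median standard error went from 0.20 to 0.12. The choice of genes favours such a drop. The common biological coefficient of variation was 23.4% in the unpaired and 14.4% in the blocked fit. Among the added genes 554 of 565 falls and 351 of 356 rises had all 5 same-numbered pairs in the direction of the fit, a count the choice of genes favours. The 10 CPM values did not overlap between genotypes in 276 of the 921 added genes and in 289 of the 299 genes called by both fits, against 5.94% of all genes tested.

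Most added genes were near misses of the unpaired fit and a minority were not. An unadjusted unpaired p under 0.05 was found for 484 added falls and 270 added rises. For these, number held a median of 33.5% and 32.7% of the sum of squares. For the other 81 falls and 86 rises number held 77.9% and 70.4%, and none of them had groups that did not overlap. The choice of these genes, by a blocked call and an unpaired p of 0.05 or more, favours both outcomes. In the edgeR fits those 167 genes are visible only against the level of their own number. Sgk1, a kinase induced by glucocorticoid and stress, is an example: it was at 37.7, 6.38, 27.6, 27.3 and 15.0 CPM in controls and at 74.6, 11.2, 51.1, 44.6 and 36.8 CPM in deleted libraries. The groups overlapped, the log2 ratio within a number (of TMM-scaled CPM with a prior count of 2 added, as are all such ratios here, so that they differ somewhat from ratios of the CPM printed) lay between 0.73 and 1.20, and the fitted change was 0.92 ± 0.51 unpaired (SE; adjusted p = 0.349) and 0.92 ± 0.08 blocked (adjusted p = 0.00495).

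Differences were smallest in number 2 and largest in number 5 for all 4 classes of called genes. For the added falls the median log2 ratio was -0.62, -0.28, -0.67, -0.38 and -0.98 in numbers 1 to 5, and for the added rises it was 0.43, 0.29, 0.48, 0.51 and 0.82. Falls called by both fits followed the same order, at -1.48, -0.81, -1.60, -1.13 and -2.30. Number 2 is also where the thymocyte sums were nearly equal (126 and 115 CPM) and where the cTEC list was lowest among controls.

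The number of blocked calls depended strongly on which numbers were in the fit, more than the fold changes did. Without number 1 the blocked edgeR fit called 14 falls and 0 rises (2041 falls and 1814 rises at an unadjusted p under 0.05), without number 3 it called 116 and 20, and without number 4 it called 324 and 59. Without number 5 it called 570 and 301, and without number 2 it called 940 and 392. One of the 565 added falls, Khdrbs2, and none of the 356 added rises was called in all 5 of these fits. Among added genes named below, Cyc1 and Cxcl16 were called in 0 of these fits. Cxcl12, Tap2, Psmc4, Srebf1, Tcf7 and Rps3a3 were called in 1 of them. The median log2 fold change of the added genes stayed between -0.71 and -0.53 for falls and between 0.44 and 0.57 for rises, and every added gene that was tested kept its sign and an unadjusted p under 0.05 in each of them. A fit without a number has 3 in place of 4 residual degrees of freedom, and the genes were chosen on all 5 numbers.

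**Figure D3:**
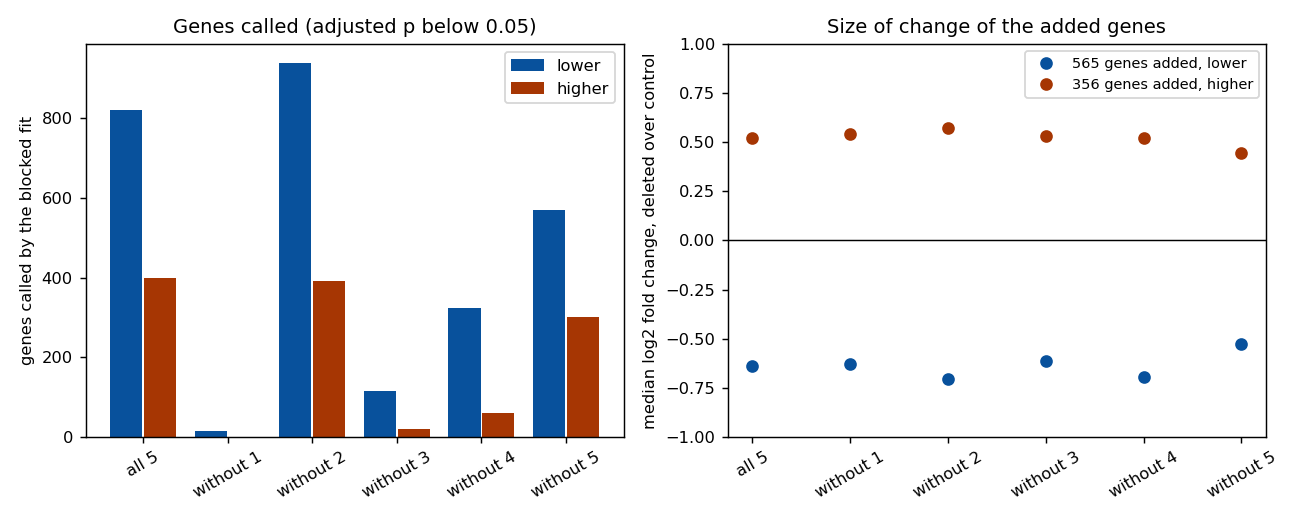
Left, genes called by the blocked fit with all 5 numbers and without each number in turn. Right, median log2 fold change of the added genes in the same fits. Calls fell to 14 lower and 0 higher without number 1 while the medians stayed between -0.71 and -0.53 and between 0.44 and 0.57.

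Genes that attract and commit T cell progenitors were the first group in which the block added members. Of 21 tested, the unpaired fit called 3 falls (Ccl25, Dll4 and Flt3l) and the blocked fit 5 falls and 3 rises, adding Cxcl12 and Wnt4 among the falls and Dll1, Jag1 and Cxcl16 among the rises; the list median was 0.07. Cxcl12, the chemokine that retains progenitors through CXCR4, was at 1436, 1043, 1883, 1235 and 2379 CPM in controls and at 819.8, 899, 774, 918 and 903 CPM in deleted libraries. The deleted libraries lay close together and all below the controls, which spread more than 2-fold. Cxcl12 fell by 0.85 ± 0.19 log2 in the blocked fit (adjusted p = 0.0416, unpaired 0.0574), and the call was lost when number 1, 3, 4 or 5 was left out. Ccl25, the CCR9 chemokine of the thymus, was at 1337, 546, 1603, 746 and 2706 CPM against 52.7, 123, 106, 37.2 and 102 CPM, with no overlap. Its log2 fold change was -4.09 ± 0.52 unpaired and -4.01 ± 0.40 blocked.

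The regions before the starts of these chemokine genes and of Dll4 are shown because the study asks which genes Foxn1 controls directly and GACGC is the core letters reported for Foxn1 binding. Each is the 250 bases before a RefSeq start, on the plus strand of GRCm38.p6, in lower case, with GACGC or its reverse complement in capitals. Ccl25 has 2 RefSeq starts, at chr8:4324960-4325209 and chr8:4349338-4349587, Cxcl12 is shown at chr6:117168285-117168534 and Dll4 at chr2:119325534-119325783.
Ccl25, first start: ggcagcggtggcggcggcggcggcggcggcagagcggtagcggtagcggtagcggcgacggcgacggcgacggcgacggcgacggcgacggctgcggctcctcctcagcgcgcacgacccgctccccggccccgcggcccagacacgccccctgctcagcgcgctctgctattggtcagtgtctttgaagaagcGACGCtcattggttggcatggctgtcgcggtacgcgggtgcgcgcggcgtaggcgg
Ccl25, second start: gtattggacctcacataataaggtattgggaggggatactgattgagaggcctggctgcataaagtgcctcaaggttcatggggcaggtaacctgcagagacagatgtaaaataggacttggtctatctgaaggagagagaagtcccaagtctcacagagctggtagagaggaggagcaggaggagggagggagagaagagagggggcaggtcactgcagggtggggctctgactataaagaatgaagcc
Cxcl12: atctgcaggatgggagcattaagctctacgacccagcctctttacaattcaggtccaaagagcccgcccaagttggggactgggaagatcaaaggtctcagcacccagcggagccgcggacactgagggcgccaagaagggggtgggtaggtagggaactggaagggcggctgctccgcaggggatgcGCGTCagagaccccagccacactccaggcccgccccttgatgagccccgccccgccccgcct
Dll4: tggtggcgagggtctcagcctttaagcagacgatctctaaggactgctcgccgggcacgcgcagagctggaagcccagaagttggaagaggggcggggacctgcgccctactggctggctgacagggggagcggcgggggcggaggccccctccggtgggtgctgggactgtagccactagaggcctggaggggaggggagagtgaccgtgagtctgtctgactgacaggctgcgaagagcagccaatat
The first Ccl25 window holds 1 match, beginning 56 bases before the start, and the Cxcl12 window 1 match on the opposite strand, 62 bases before it. The second Ccl25 window and the Dll4 window hold none, which says only that these letters are not in these windows. Promoters of 300 bases (250 before and 50 after the start) were found for 10763 of the tested genes by symbol. GACGC on either strand was in 51.7% of the falls called by both fits (91 of 176), in 51.8% of the added falls (203 of 392), in 41.9% of the added rises (103 of 246) and in 30.4% of the rises called by both fits (7 of 23). It was in 48.7% of genes the blocked fit did not call. Counted by single promoters in place of genes, it was in 27.2% of all 32851 promoters. A gene can have more than 1 promoter, so this last share cannot be compared with the shares of genes. In the 250 bases before the start the shares were 43.6% for the added falls and 41.3% for genes not called, and no difference between these shares was tested.

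In the Notch pathway the ligands moved in opposite directions. Of 23 genes the unpaired fit called 4 falls and the blocked fit 6 falls and 2 rises (median -0.02). Dll4 was at 174, 127, 268, 157 and 424 CPM in controls and at 22.5, 41.9, 43.5, 27.3 and 31.0 CPM in deleted libraries, and fell by 2.71 ± 0.29 (blocked adjusted p = 0.00722). Jag1 was at 98.9, 83.8, 71.8, 99.9 and 53.9 CPM in controls and at 126, 103, 123, 138 and 136 CPM in deleted libraries, and Dll1 at 86.6, 83.4, 77.0, 78.1 and 64.2 against 127, 97.5, 99.7, 113 and 94.8 CPM. Neither ligand overlapped between genotypes, and of the edgeR fits only the blocked one called them (Jag1 0.62 ± 0.13, adjusted p = 0.0377 against 0.0717 unpaired; Dll1 0.43 ± 0.06, adjusted p = 0.0155 against 0.0633). DESeq2 without the block called 2 rises in this list. Jag2, a further ligand, was at means of 499 and 498 CPM and was not called (adjusted p = 0.828). The targets and modulators Hes6 (-1.80 ± 0.29) and Heyl (-1.92 ± 0.24) fell in both fits.

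Markers of the cortical programme gave the largest share of calls of any list. Of the 20 genes of the cTEC identity list 8 fell in the unpaired fit and 12 in the blocked fit, none rose, and the median was -0.78. The added falls were Cxcl12, Krt8, Krt18 and Tap2. Prss16, a serine protease of cortical epithelium, was at 3743, 2177, 4516, 2510.1 and 8182 CPM in controls and at 283, 615, 449, 280.3 and 438 CPM in deleted libraries (-3.29 ± 0.34 blocked). Pax1, a transcription factor of the thymic primordium, was at means of 766 and 654 CPM and not called (-0.25 ± 0.08, adjusted p = 0.0811). Psmb11, the beta5t subunit of the thymoproteasome, was near the limit of counting, at 0.457, 0.41, 0.947, 0.997 and 1.79 CPM against 0, 0.137, 0.574, 0.689 and 0.193 CPM. It was lower in each deleted library of the same number, and the block left it uncalled (-1.60 ± 0.53, adjusted p = 0.0944). All mice of both groups were homozygous for the activator at the locus of this gene. The part of that insertion in these low counts was not tested.

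Of 17 class I genes the blocked edgeR fit called 3 falls and no rise (median -0.03), and the unpaired fit called 0, with 3 falls and 2 rises at an unadjusted p under 0.05. Over all 15224 genes the unpaired fit had 1798 falls and 1146 rises at such a p, and the blocked fit 2444 and 2315. DESeq2 called 2 falls and 1 rise unpaired and 3 falls and 5 rises with the block. Psmb10, the immunoproteasome subunit beta2i, was at 245, 159, 311, 182 and 467 CPM in controls and at 107, 122, 117, 126 and 168 CPM in deleted libraries. Deleted library 5 reached above control library 2, and every deleted library was below the control of its number (-1.02 ± 0.19, adjusted p = 0.026 blocked and 0.0717 unpaired). Psmb9, the beta1i subunit, fell by 0.71 ± 0.14 and Tap2, a chain of the peptide transporter, by 0.31 ± 0.07. H2-K1 and B2m, which form the class I molecule, were at means of 2357 and 2891 CPM and of 1814 and 2264 CPM, and were not called by edgeR (blocked adjusted p = 0.112 and 0.0712), whereas DESeq2 with the block called both higher (0.26 and 0.30 log2, adjusted p = 0.038 and 0.00745). Class II genes gained 1 call: 3 of 24 fell in the unpaired fit (Prss16, Cd83 and Ctsl) and 4 in the blocked fit, while Cd74 (0.06 ± 0.07) and H2-Ab1 (0.12 ± 0.07), the invariant chain and a class II chain, were not called.

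All 31 subunits of the constitutive proteasome had a log2 fold change below 0, with a median of -0.25, where 7176 of all 15224 genes were below 0. The blocked fit called 3 falls and the unpaired fit 0, with 22 of the 31 at an unadjusted p under 0.05 and below 0; DESeq2 called 3 unpaired and 12 with the block. Psmb5, the catalytic subunit that beta5t replaces, was at 51.8, 58.9, 69.3, 55.0 and 98.8 CPM in controls and at 35.4, 41.1, 38.3, 40.1 and 46.2 CPM in deleted libraries, without overlap (-0.72 ± 0.11, adjusted p = 0.018 blocked and 0.0561 unpaired). Psmb4, a structural beta subunit, fell by 0.72 ± 0.13 and Psmc4, an ATPase of the regulatory particle, by 0.35 ± 0.08. In oxidative phosphorylation 24 of 24 genes were below 0 (median -0.21), with 2 falls called by the blocked fit, a share near the 5.40% of all genes, and 0 by the unpaired fit, where 14 were below 0 at an unadjusted p under 0.05. Cyc1, cytochrome c1 of complex III, fell by 0.25 ± 0.06 (adjusted p = 0.041 blocked and 0.118 unpaired). Its call was lost whichever number was left out. Atp5b, a subunit of ATP synthase, missed the threshold (-0.33 ± 0.08, adjusted p = 0.0539 blocked and 0.117 unpaired).

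Of 21 genes of cholesterol synthesis 5 fell in the blocked edgeR fit and 20 had a log2 fold change below 0 (median -0.32), and the unpaired edgeR fit called 0, with 12 below 0 at an unadjusted p under 0.05, while DESeq2 without the block called 6 falls. Srebf2, the transcription factor that switches on sterol synthesis, was at 209, 246, 227, 223 and 311 CPM in controls and at 153, 209, 167, 182 and 179 CPM in deleted libraries, the highest deleted value lying just under the lowest control (-0.46 ± 0.10, adjusted p = 0.0349 blocked and 0.076 unpaired). Idi1, the isopentenyl diphosphate isomerase, fell by 0.90 ± 0.18. Among 22 fatty acid genes 3 fell and 4 rose (1 and 1 unpaired). Fasn, fatty acid synthase, was at 286, 284, 339, 276 and 496 CPM against 156, 223, 198, 202 and 226 CPM (-0.74 ± 0.13), and its activator Srebf1 fell by 0.55 ± 0.13. The genes that rose included the cholesterol exporter Abcg1 (1.07 ± 0.20) and Mylip (0.41 ± 0.07), a ligase that removes the LDL receptor.

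**Figure D4:**
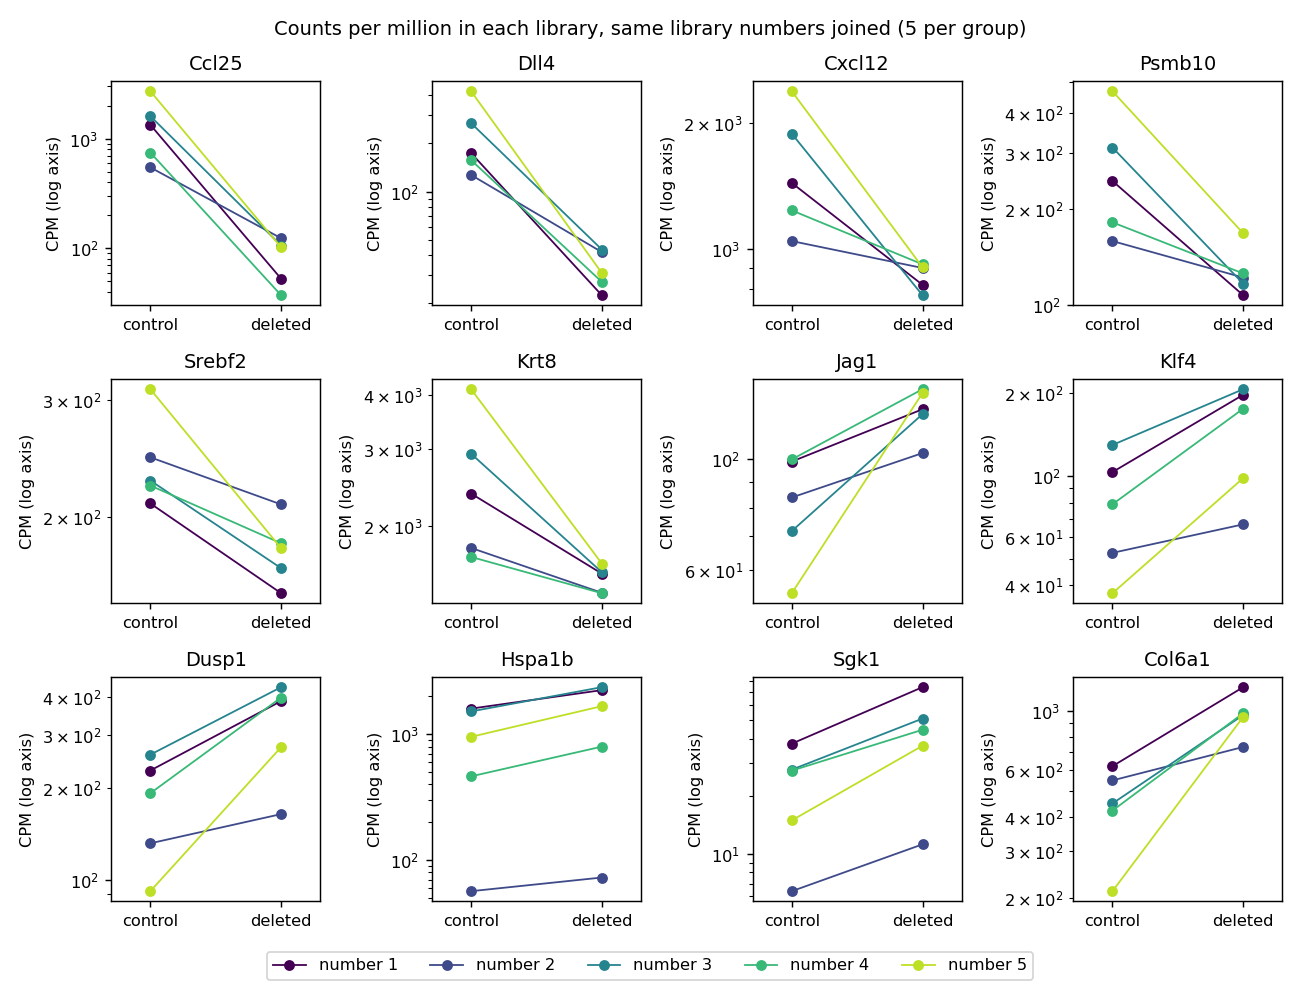
CPM of 12 genes in each library on log axes, with lines joining control and deleted libraries of the same number. Ccl25 and Dll4 were separated without regard to number, whereas for Hspa1b and Sgk1 the spread between numbers exceeded the step between genotypes, which ran upward in all 5 numbers.

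Krt8 and Krt18, the keratin pair of simple epithelium, fell in the blocked fit. Krt8 was at 2369.6, 1776, 2928, 1693 and 4124 CPM in controls and at 1549, 1399, 1561, 1396 and 1635 CPM in deleted libraries, all below the controls (-0.72 ± 0.17, adjusted p = 0.0462 blocked and 0.113 unpaired), and Krt18 fell by 0.69 ± 0.16. In the list of 25 keratin and junction genes those were the 2 falls, Cldn1, a tight junction claudin of the epidermis, was the 1 rise (0.55 ± 0.07), and the median was 0.14. The rule for single genes named, among the added rises, 3 genes known from stratified epithelium. Sprr1a, a precursor of the cornified envelope, was at 6.99, 3.19, 4.74, 10.1 and 2.15 CPM in controls and at 28.4, 5.02, 16.2, 35.9 and 47.2 CPM in deleted libraries, higher in each number and least so in number 2 (2.10 ± 0.44, adjusted p = 0.0349). Krtdap, a protein of differentiating keratinocytes, rose by 1.66 ± 0.31, and Pkp1, a desmosomal plakophilin, by 0.81 ± 0.10. These are single genes, and no list of keratinocyte differentiation was counted.

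Among 28 transcription factors of thymic epithelium the unpaired fit called 1 fall (Irf8, a factor of interferon and antigen presentation) and the blocked fit 2 falls and 2 rises (median -0.09). Over all genes the blocked fit called 5.40% lower and 2.61% higher, and no difference of a list from these shares was tested. Klf4, a factor of barrier epithelium, was at 103, 52.5, 129.5, 78.8 and 37.5 CPM in controls and at 197, 66.7, 207, 175 and 98.2 CPM in deleted libraries. The groups overlapped, and each deleted library was above the control of its number (0.88 ± 0.13, adjusted p = 0.0172 blocked and 0.25 unpaired). Trp63, which maintains epithelial progenitors, was at means of 888 and 959 CPM and not called. Of 39 WNT, BMP, FGF and TGF-beta genes the blocked fit called 4 falls and 2 rises and the unpaired fit 0 (5 falls and 7 rises at an unadjusted p under 0.05; DESeq2 called 3 and 3). Wnt4, a ligand tied to Foxn1 expression, fell by 0.54 ± 0.11, and Tgfb2 rose by 1.01 ± 0.16. In the NF-kB list, Cd40 fell by 0.97 ± 0.17 in the blocked fit alone, as 1 of 2 falls beside 1 rise among 23 genes.

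Of 24 immediate early and stress genes the unpaired fit called 0, with 2 rises at an unadjusted p under 0.05 and 0 called by DESeq2 or limma-voom. The blocked fit called 9 rises and 1 fall, with 16 rises at an unadjusted p under 0.05, and the list median was 0.42. Dusp1, a phosphatase that ends MAP kinase signals, was at 229, 132, 258, 193 and 91.8 CPM in controls and at 387, 165, 430.3, 398 and 273 CPM in deleted libraries (0.86 ± 0.15, adjusted p = 0.0239). Jun, a subunit of AP-1, was at 2304, 1204, 2234, 1894 and 1138 CPM against 3099, 1380.4, 3163, 2672 and 1939 CPM (0.46 ± 0.08, adjusted p = 0.0263 blocked and 0.389 unpaired). In both genes the step was smallest in number 2. Fos and Egr1, with higher means in the deleted group (2372 against 1651 CPM and 2003 against 1627 CPM), were not called (adjusted p = 0.0729 and 0.107). Such genes are known to be induced when tissue is dissociated, and the part of handling in these values was not tested.

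Heat shock genes as a list moved in both directions, with a median log2 fold change of 0.11 and 8 of 18 genes below 0. Of 18 genes the blocked fit called 3 rises (Hspa1b, Hspa1a and Hspb1) and the unpaired fit 0, where none had an unadjusted p under 0.05 and neither DESeq2 nor limma-voom called any. Hspa1b was at 1602, 56.7, 1521, 464 and 956 CPM in controls and at 2246, 72.8, 2372, 799 and 1676 CPM in deleted libraries, with number 2 far below the others in both groups. The log2 ratio within a number lay between 0.36 and 0.81, and the standard error went from 0.87 to 0.08 with the block (0.60, adjusted p = 0.013). Hspa1a is a near-identical neighbour of Hspa1b, so reads could be shared between them and the 2 are not separate evidence. With the number fitted as a random effect in limma-voom, none of the 3 heat shock genes was called (adjusted p = 0.589 for Hspa1b, 0.656 for Hspa1a and 0.483 for Hspb1). Jun, Klf4, Sgk1, Cd40, Cxcl16, Inmt, Tcf7, Thy1 and Sprr1a lost their calls there too (adjusted p from 0.0519 for Cd40 to 0.168 for Tcf7). In that fit 260 of the 356 added rises and 412 of the 565 added falls were called. Hsp90ab1 and Hspa8, constitutive chaperones, were not called (-0.02 ± 0.07 and -0.11 ± 0.08).

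Matrix and vascular genes were mostly higher, and the fibroblast markers were higher with them. Of 30 matrix and integrin genes the blocked fit called 4 rises and 1 fall (median 0.25) and the unpaired fit 0, with 7 rises and 2 falls at an unadjusted p under 0.05 and 3 rises and 1 fall called by DESeq2. Col6a1, a collagen VI chain, was at 621, 549, 450.5, 424 and 212 CPM in controls and at 1225, 732, 964, 979 and 949 CPM in deleted libraries, without overlap (1.15 ± 0.21, adjusted p = 0.0251). Mmp9, a matrix protease, fell by 0.92 ± 0.14. The fibroblast list rose 1.70-fold in sum, Dcn, its most abundant member, was at means of 418 and 761 CPM (0.88 ± 0.23, adjusted p = 0.057), and the part of fibroblast RNA in the matrix genes was not tested. Of 18 angiogenic factors 3 rose in the blocked fit, Edn1 and Figf in both fits and Angpt1 in the blocked fit alone (0.57 ± 0.10). Edn1, endothelin 1, was at 3.88, 2.10, 2.98, 2.58 and 1.92 CPM in controls and at 8.58, 4.43, 6.42, 5.88 and 5.45 CPM in deleted libraries (1.18, SE 0.25 unpaired and 0.13 blocked). The endothelial markers overlapped between the groups, with 9.30 to 42.6 CPM in controls and 9.40 to 46.4 CPM in deleted libraries.

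Several groups stayed without a call in both edgeR fits. These were glycolysis (17 genes, 5 rises at an unadjusted blocked p under 0.05), cytosolic ribosomal proteins (26 genes, 2 rises), cell cycle (29 genes, 1 rise) and the interferon response (23 genes, 6 rises). Over all 15224 genes 2315 rises had such a p. With the block DESeq2 called 2 glycolysis and 3 interferon genes higher, and limma-voom 1 glycolysis gene. Without the block DESeq2 already called 1 glycolysis and 3 interferon genes higher. The unpaired edgeR fit had 2 glycolysis and 7 interferon rises at an unadjusted p under 0.05. In the blocked fit 3 of 17 glycolysis and 3 of 23 interferon genes had a log2 fold change below 0, beside 7176 of all 15224 genes. Gapdh was at means of 619 and 714 CPM (0.18 ± 0.08) and Ccnd2, a cyclin, at 407 and 404 CPM (-0.04 ± 0.06). Autophagy (2 falls and 1 rise of 26), lysosome (4 falls of 27), the unfolded protein response (3 falls and 1 rise of 20), mitochondrial ribosome (2 falls of 24), p53 targets (1 fall and 1 rise of 22), mTEC identity (2 falls and 1 rise of 21) and tissue-restricted antigens (1 fall of 8) each gained at most 3 calls from the block. Beside these small counts stand the 5.40% lower and 2.61% higher of the blocked fit over all genes.

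**Figure D5:**
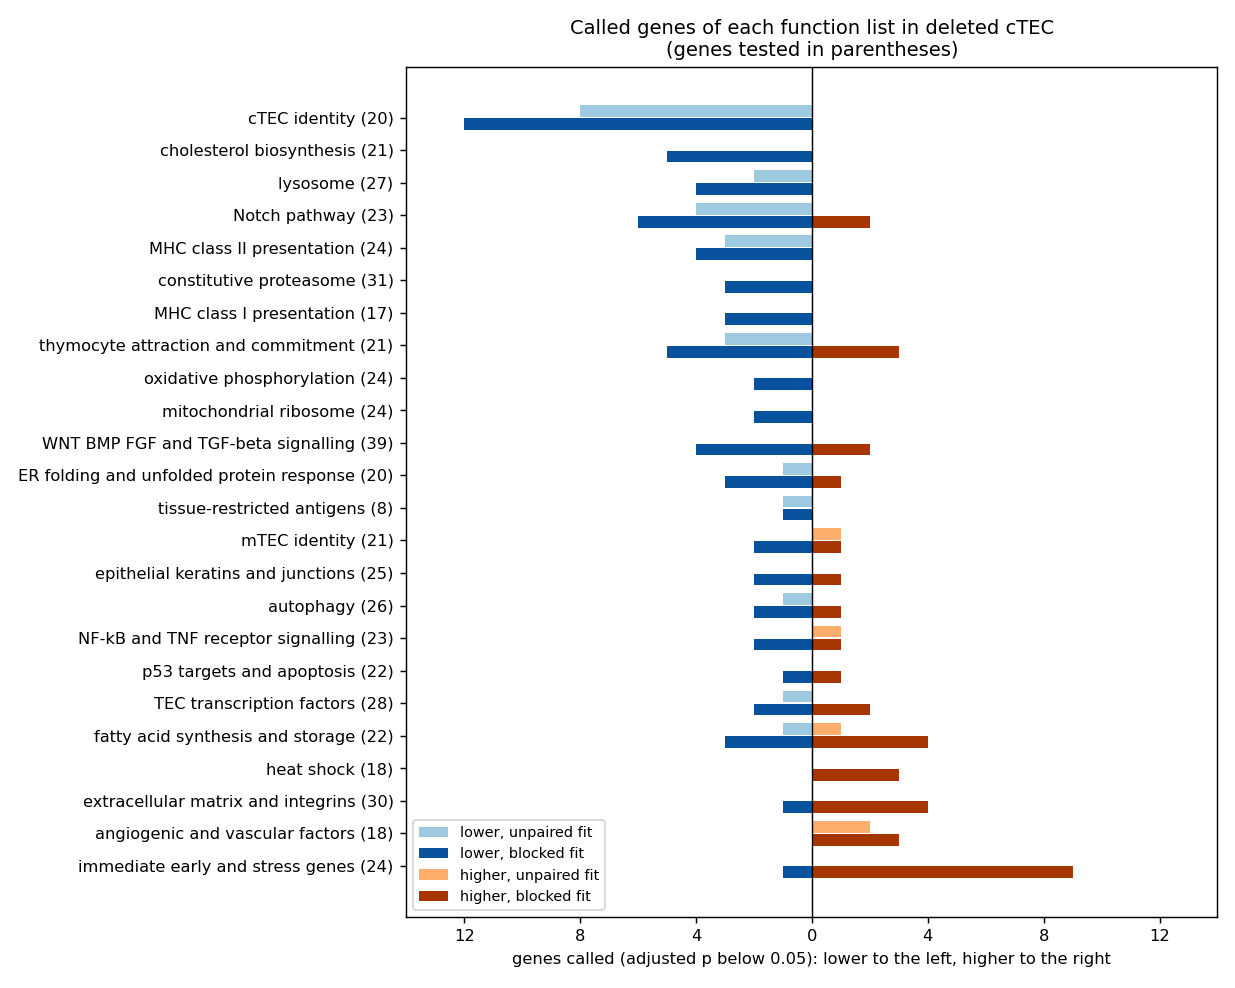
Genes called lower (left) and higher (right) in deleted cTEC by the unpaired and the blocked fit for each function list with at least 1 call. The blocked fit called 12 falls in the cTEC identity list and 9 rises among immediate early and stress genes, where the unpaired fit called 8 and 0.

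Genes of thymocytes, the cells that remain bound to cortical epithelium in preparations, were called by the blocked fit as well. Of 19 thymocyte markers 7 fell and 19 had a log2 fold change below 0 (median -0.76). In the unpaired fit 0 were called, with 1 at an unadjusted p under 0.05, by edgeR, DESeq2 or limma-voom alike. Tcf7, a transcription factor of T cell precursors, was at 155, 22.5, 172, 69.1 and 206 CPM in controls and at 56.4, 21.8, 61.9, 48.8 and 115 CPM in deleted libraries, and in number 2 the values were nearly equal (-0.91 ± 0.21, adjusted p = 0.0441). Thy1, carried by thymocytes and by fibroblasts, was at 51.1, 7.20, 57.7, 25.6 and 77.3 CPM against 13.5, 2.97, 15.9, 13.0 and 33.7 CPM (-1.48 ± 0.15, adjusted p = 0.00695). Neither of these 2 calls held with the number as a random effect (limma-voom adjusted p = 0.168 for Tcf7 and 0.0978 for Thy1).

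Inmt, a methyltransferase, had the largest fold among the named added falls, from a mean of 16.1 to 2.41 CPM (-2.42 ± 0.39). Its call was lost with the number as a random effect (limma-voom adjusted p = 0.0522) and without number 1 or 3. Adamtsl2, a secreted matrix protein, fell by 2.12 ± 0.29 and was higher at the lower dose in the transgenic model. Khdrbs2, an RNA-binding protein, was at 4.20, 2.78, 5.73, 1.50 and 9.92 CPM in controls and at 0.923, 0.502, 1.20, 0.276 and 1.98 CPM in deleted libraries. The groups overlapped, while the log2 ratio within a number was between -2.37 and -2.09 in all 5 (-2.35 ± 0.59 unpaired, adjusted p = 0.0758; ± 0.15 blocked, adjusted p = 0.00178). Chrna9, a nicotinic receptor subunit, fell by 1.74 ± 0.32 and Hhip, which binds hedgehog ligands and was named for its small p, fell by 1.42 ± 0.14. Among genes called by both fits Gper1, a G protein-coupled estrogen receptor, was at 76.0, 55.0, 127, 62.8 and 180.0 CPM against 1.57, 3.88, 6.75, 2.76 and 7.34 CPM; its log2 fold change was nearly the same in both fits (-4.53 and -4.52) and its standard error went from 0.49 to 0.21. Gper1, Slc22a7 and Shank2 were called in all 5 blocked fits without a number.

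The rises of largest fold belong to copies of a ribosomal protein gene and are uncertain. Rps3a2, called by both fits, was at 4.11, 24.3, 5.55, 33.5 and 3.17 CPM in controls and at 109.8, 117, 117, 98.5 and 81.9 CPM in deleted libraries, and Rps3a3, added by the block, at 0.228, 27.8, 0.361, 44.3 and 0.402 against 165, 166, 179, 149 and 120.3 CPM. Rps3a1, named after its values were seen, was at 916, 1029.7, 1105, 1049 and 929.6 CPM in controls and at 737, 719, 853, 698 and 699 CPM in deleted libraries, a fall of 0.46 ± 0.06. The sum of the 3 was 920.5 to 1127 CPM in controls and 901 to 1149 CPM in deleted libraries (exact permutation test, two-sided p = 0.587). Reads of near-identical copies can be assigned to any of them, so the single values are uncertain. The part of read assignment in these differences was not tested, and no change was found in the sum.

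The added genes were also looked up in cTEC of a further model in the same table, with no library in common. There, mice on the nude background carry a Foxn1 BAC transgene, and 3 libraries from heterozygous mice (the lower dose) were set against 3 from homozygous mice. Of the added falls 465 of 556 tested were lower at the lower dose (83.6%) and 21 higher, beside 26.7% lower over all genes tested in both sets. Of the added rises 211 of 351 were higher (60.1%) and 36 lower, beside 24.0% higher over all genes. Shares for the genes called by both fits were 89.9% of 257 falls and 53.7% of 41 rises. The added falls with an unadjusted unpaired p of 0.05 or more were lower at the lower dose in 61 of 75, and those rises were higher in 48 of 86. Thymocyte markers were lower in both models (18 of 19 called lower at the lower dose), and immediate early genes were higher in both (18 of 24 called higher), and the part of such cell and handling differences in these shares was not tested. All 31 constitutive proteasome genes and 21 of 24 oxidative phosphorylation genes were lower at the lower dose. Other lists did not move alike in the 2 models. Of 23 interferon response genes 16 were called lower and 0 higher at the lower dose (median -0.64), against a median of 0.20 in the deletion. Of 17 glycolysis genes 10 were lower and 1 higher (median -0.34, against 0.18), and of 18 heat shock genes 9 were lower and 3 higher. Khdrbs2, Dll1 and Hspa1b were not called there (0.16, 0.12 and 0.35 log2), and Heyl, which fell in the deletion, was higher (1.50).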

How the data were processed

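RNA of 5 control and 5 Foxn1-deleted cTEC libraries was compared from the deposited table of read counts per gene (38720 genes, not normalized). TopHat2 2.0.10 and featureCounts, with the builds mm10 and GRCm38, are listed per the submitters' processing notes; which annotation was counted, and whether by strand, is not given in the sources used here, so overlapping and antisense genes cannot be separated. Totals were 20719630 to 22372633 counts per library. Counts were fitted in R 4.3.3 with edgeR 4.0.16 (filterByExpr, minimum count 10 and minimum total 15; TMM; glmQLFit and glmQLFTest), with genotype alone (8 residual degrees of freedom) or with the library number as a block (4). Only the 10 libraries entered these fits, and Benjamini-Hochberg adjustment ran over all 15224 genes at a threshold of 0.05. CPM values are counts scaled to a library total of 1000000. Standard errors of log2 fold changes were computed from the fits. The 10 transgenic libraries (6 cTEC and 4 medullary, which share 1 estimate of spread) were fitted apart from them, unpaired, and heterozygous cTEC were set against homozygous cTEC. Alternatives used limma 3.58.1 (voom, also with number as a random effect) and DESeq2 1.42.0, RLE factors, no filter, a minimum count of 50, and leaving out libraries or numbers.

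Genes were named by a rule: Foxn1 and 7 genes of cTEC function; among added genes of at least 2 CPM with all 5 pairs in 1 direction, the 10 largest changes and 5 smallest p each way; the 10 largest each way called by both fits; calls lost with the block; and from each list up to 3 called members each way and 2 abundant uncalled members. The comparison, the lists and the rule were chosen with earlier results of these data known. The numbers would have been taken as pairs had every same-numbered correlation been above 0.1. Promoters came from RefSeq (GRCm38.p6). Binding data were not used here, and medullary libraries entered only that estimate of spread.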

Additional observations from a re-analysis of the deposited data

Results flagged for a closer look

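Of 84 groups of 5 values examined, 2 held a library far from the other 4, where chance gives about 1 group in 20. Fasn was at 496 CPM in control library 5, and the other 4 controls lay between 276 and 339 CPM. Rps3a1 was at 853 CPM in deleted library 3, and the other 4 deleted libraries lay between 698 and 737 CPM.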

How the results depend on the processing

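No direction of a named gene reversed in the alternatives to the blocked fit, which include the unpaired fit. Directions of single genes were not followed in the other alternatives to the unpaired fit. The counts of calls moved. Against 257 falls and 43 rises in the unpaired fit, the replicate block gave 822 and 398, DESeq2 781 and 327 and limma-voom 89 and 15; leaving out 1 library gave 27 to 732 falls and 0 to 188 rises. The lowest count of falls came without deleted library 4 and the highest without control library 2, and 0 rises were called by edgeR without deleted library 1, 4 or 5 (990, 854 and 876 rises at an unadjusted p under 0.05). Against 822 and 398 in the blocked fit, no replicate block gave 257 and 43, DESeq2 with the block 1268 and 1002, and the number as a random effect 1082 and 725; leaving out a number gave 14 to 940 falls and 0 to 392 rises. The 565 added falls became 14 to 540 and the 356 added rises 0 to 325 without a number; with no low-count filter the added rises were 548 and by DESeq2 705. Of the 921 added genes DESeq2 called 546 falls and 340 rises with the block and 337 and 159 without it. Counts with RLE factors stayed within 1.5 times of the main values. The correlation of number 3 was 0.177 over genes of at least 10 CPM, above the 0.1 asked. It stayed below 0.1 by Spearman correlation (0.0422) and without marker genes of other cells (0.0821). The median of the attraction list, 0.07, was -0.02 without the block. The numbers were not accepted as pairs, so the blocked calls depend on an unexplained number and on 4 residual degrees of freedom. The causes of these shifts were not tested.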
